A study of Homo sapiens with 18 samples.

Results

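Eph receptor genes were followed in OVCAR3 cells, a line derived from a high-grade serous carcinoma of the ovary, after exposure to antibodies. The 10 genes described are EPHA1, EPHA2, EPHA4, EPHA7, EPHA10, EPHB1, EPHB2, EPHB3, EPHB4 and EPHB6. They were taken by symbol from 55765 gene symbols counted by RNA sequencing, and all 10 had enough reads to be tested in both experiments. The tables hold 14 Eph receptor genes, and the other 4 (EPHA3, EPHA5, EPHA6 and EPHA8) are treated with the pathway. Of the 18 libraries, 9 belonged to each experiment, with 3 replicates in each of 6 groups. In the first experiment cells received nonspecific human IgA, nonspecific human IgG, or nothing. In the second they received a BDNF-reactive IgA (BDNF IgA), a TSPAN7-reactive IgA (TSPAN7 IgA), or nothing. Antibodies were given at 0.5 µg/ml, and every group, the untreated cells included, was held in medium with 2% serum, for 24 h according to the sample descriptions. A supplementary legend of the study gives a shorter incubation. The BDNF and TSPAN7 antibodies were purified from the medium of immortalised B cells, and the number of clones behind each was not given for these libraries. The 2 experiments were counted separately, and groups were compared only within an experiment.

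Eph receptors are the largest family of receptor tyrosine kinases. They bind ephrins, ligands that are themselves held in the membrane of the neighbouring cell, so that signalling runs through cell contact and can go in both directions. EphA receptors mostly bind the lipid-anchored ephrin-A ligands and EphB receptors the transmembrane ephrin-B ligands, with EphA4 able to bind both. In epithelia the system governs cell sorting, adhesion and repulsion, largely through the actin cytoskeleton, and EphA2 is abundant in many carcinomas. EphA10 and EphB6 carry kinase domains that lack catalytic activity and act through partner receptors.

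EPHA2, EPHA4, EPHB3 and EPHB6 passed the test in more than one comparison, and the 250 bases upstream of their starts are shown to place these results. The sequences were read 5′ to 3′ on the strand of the gene from GRCh37, at RefSeq promoter windows (a GRCh38.p14 table) that were matched base for base to GRCh37. Capitals mark the GC box GGGCGG, on which SP1 family factors are known to bind, in either orientation (CCGCCC when read from the other strand), and the cAMP response element TGACGTCA, which is its own reverse complement.
EPHA2, chr1:16482565-16482814, minus strand: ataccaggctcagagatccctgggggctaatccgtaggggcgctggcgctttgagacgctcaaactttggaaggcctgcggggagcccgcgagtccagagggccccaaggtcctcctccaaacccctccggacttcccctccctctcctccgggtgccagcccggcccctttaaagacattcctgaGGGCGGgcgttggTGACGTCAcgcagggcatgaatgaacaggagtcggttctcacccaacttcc
EPHA4, chr2:222438923-222439172, minus strand: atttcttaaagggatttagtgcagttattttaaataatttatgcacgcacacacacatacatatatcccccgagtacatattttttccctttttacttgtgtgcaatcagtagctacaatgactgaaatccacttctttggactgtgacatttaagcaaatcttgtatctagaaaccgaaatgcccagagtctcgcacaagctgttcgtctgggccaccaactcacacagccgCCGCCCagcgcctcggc
EPHB3, chr3:184279323-184279572, plus strand: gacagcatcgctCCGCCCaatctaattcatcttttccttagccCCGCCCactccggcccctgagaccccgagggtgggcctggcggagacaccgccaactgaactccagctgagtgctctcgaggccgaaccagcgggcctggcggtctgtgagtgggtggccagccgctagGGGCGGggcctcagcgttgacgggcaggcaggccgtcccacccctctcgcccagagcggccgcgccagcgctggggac
EPHB6, chr7:142560264-142560513, plus strand: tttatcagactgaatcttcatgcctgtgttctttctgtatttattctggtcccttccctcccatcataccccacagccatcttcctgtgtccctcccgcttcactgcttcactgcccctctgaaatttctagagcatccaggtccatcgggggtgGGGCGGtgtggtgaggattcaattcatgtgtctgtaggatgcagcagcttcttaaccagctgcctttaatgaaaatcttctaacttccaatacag

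Of the 10 genes, 9 had a RefSeq window and EPHA10 had none. All 9 held at least 1 GC box upstream of a start, against 46.2% of 27305 genes with a window. Only EPHA2 held the cAMP response element, which 2.03% of genes held. GC content was 63.2% for EPHA2, 43.2% for EPHA4, 70.0% for EPHB3 and 48.0% for EPHB6 (median of all windows 58.0%), and CpG counts were 15, 9, 21 and 3 (median 11). EPHA4 has a second RefSeq window further into the gene, with 5 GC boxes, which overlaps 54 exonic bases of a longer transcript. This second window has a GC content of 78.0% and 30 CpG, so the low EPHA4 values above hold for the printed window only. The EPHB6 window lies within an intron of longer transcripts of the gene. These matches describe letters only.

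In untreated cells of the first experiment EPHA2 stood far above every other member. In CPM (counts corrected for the library total) per kilobase of exon, a scale on which genes of different length can be compared, its level was 66.5 ± 3.99 (SD, n = 3), which was 73.5% of the summed level of the 10 genes. EPHB3 followed at 5.79 ± 0.202. EPHB4 at 4.47 ± 0.0802 and EPHA1 at 4.47 ± 0.544 overlapped and could not be ordered. EPHB2 came next at 3.30 ± 0.225, and EPHB1 at 2.32 ± 0.247 and EPHA4 at 2.18 ± 0.0594 again overlapped. EPHB6 reached 1.08 ± 0.182, EPHA10 0.241 ± 0.0108 and EPHA7 0.0443 ± 0.0200.

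The untreated cells of the second experiment gave the same first and the same last 3 genes on this scale. EPHA2 had a level of 43.7 ± 0.774, or 65.0% of the sum. EPHB2 at 5.15 ± 0.198 and EPHB4 at 5.09 ± 0.200 overlapped, EPHB3 was at 4.65 ± 0.0637, EPHA4 at 2.95 ± 0.101 and EPHA1 at 2.62 ± 0.0825. EPHB1 at 1.36 ± 0.0891 and EPHB6 at 1.21 ± 0.121 overlapped, and EPHA10 (0.438 ± 0.0420) and EPHA7 (0.0978 ± 0.0153) were again lowest. The middle of both orders depends on the length used, because dividing by the longest transcript raises EPHA1 from 4.47 to 6.34 in the first experiment. With nonspecific IgA the share of EPHA2 among the 10 genes was 86.5% (85.2 to 87.6% over the libraries), and with nonspecific IgG it was 73.4%. EPHB3 was at 6.36 ± 0.465 CPM per kilobase in IgG-treated cells, and in IgA-treated cells at 2.61 ± 0.846, where its libraries overlapped those of EPHA1, EPHB1 and EPHB2. CPM corrects for the library total alone, so differences between groups on this scale are not the normalised fold changes given below.

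**Figure D1:**
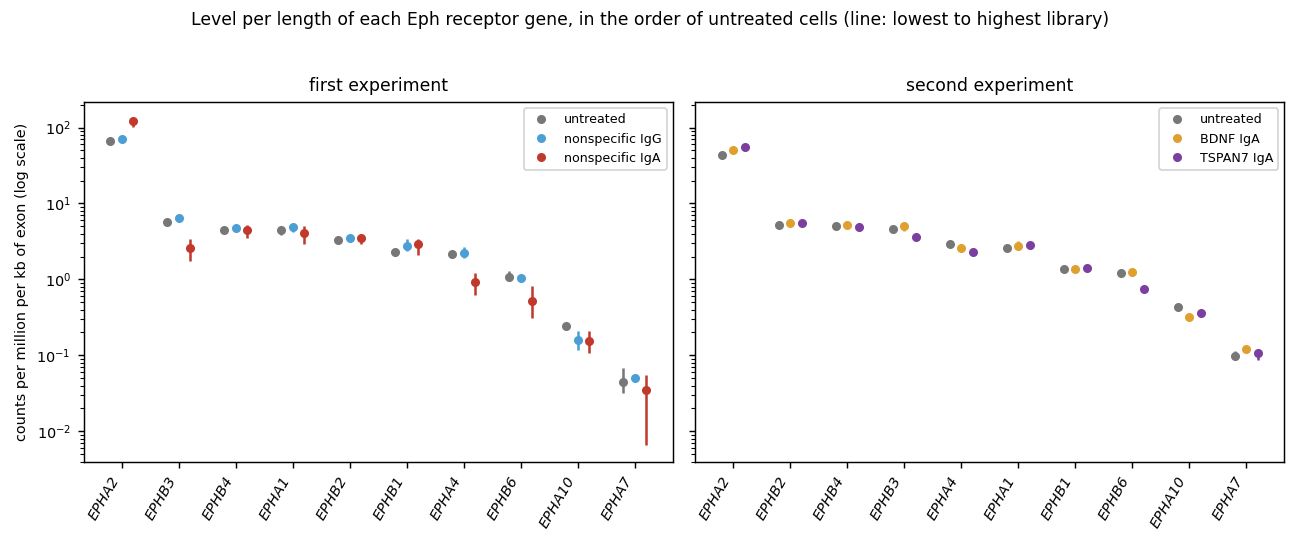
Level of each of the 10 genes in CPM per kilobase of exon (vertical log axis) in the 6 groups, with genes on the horizontal axis in the order of untreated cells; points are means of 3 libraries and lines run from the lowest to the highest library. EPHA2 lies above 40 in every group, and all other genes lie below 10.

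Depth was between 27920733 and 42371474 counts per library in the first experiment and between 39254350 and 47381836 in the second. The 9 markers of the serous carcinoma line (MSLN and WT1 among them) had 10 or more counts in all 18 libraries, while the 7 B cell and plasma cell markers counted summed to at most 65 counts in a library. Summed markers of fibroblasts were at 13.2 to 30.4 CPM and those of endothelium at 1.94 CPM or less. IgA replicate 3 stood apart, since 19.1% of its counts came from the mitochondrial genome against 5.75 to 8.32% in the other 8 libraries of that experiment, and its part in the results was not tested beyond leaving it out. The common dispersion was 0.0307 in the first experiment and 0.00303 in the second, so that small differences were measured more precisely in the second. In such bulk samples less RNA per cell and fewer cells expressing a gene cannot be told apart.

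The comparison of nonspecific IgA with nonspecific IgG sets IgA beside another antibody class. The number of preparations behind each class was not given for these libraries, so antibody class and preparation cannot be told apart. EPHA2, the receptor of ephrin-A1, rose 2.00-fold, whereas EPHB3, EPHA4 and the kinase-dead EPHB6 fell. Of the 10 genes, 1 was called higher and 3 lower (edgeR quasi-likelihood test, two-sided, adjusted p under 0.05), beside 12.6% and 11.6% of the 18012 genes tested. The median log2 fold change of the 10 was 0.02, and that of all genes was −0.015. Without overlap, 2 lay above and 3 below the IgG libraries, beside 19.7% and 20.6% of all genes. Against untreated cells 3 were called higher and 3 lower, beside 12.9% and 12.1% of all genes, with a median of −0.05 against −0.012. Here 3 lay wholly above and 3 wholly below the untreated libraries, beside 19.8% and 20.1% of all genes. Both comparisons use the same IgA libraries.

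EPHA2 lies on chromosome 1 (16450832 to 16482564, GRCh37), downstream of the first sequence printed above. Its normalised counts (counts put on the average effective depth of the 9 libraries of the experiment) were 20547, 19564 and 18558 in IgA replicates 1 to 3. They were 9975, 9282 and 10076 with IgG and 8687, 9199 and 10032 in untreated cells. Every IgA library was thus far above every other library, IgA replicate 3 included, and the IgG and untreated libraries overlapped. The log2 fold change was 1.00 against IgG (SE 0.09, 95% interval 0.796 to 1.204, edgeR adjusted p 2.67e-05) and 1.07 against untreated cells (SE 0.09, 95% interval 0.87 to 1.28, edgeR adjusted p 1.42e-05). It was the only one of the 10 genes called higher in both comparisons.

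EPHA4, the receptor of both ephrin classes, lies on chromosome 2 (222282747 to 222438922). Its normalised counts were 287.0, 322.8 and 206.9 with IgA, 474.1, 526.3 and 684.0 with IgG, and 529.5, 568.4 and 572.0 untreated. The IgA libraries lay below all 6 others. EPHA4 fell by a log2 fold change of −1.04 against IgG (SE 0.18, 95% interval −1.43 to −0.64, edgeR adjusted p 0.00182) and −1.02 against untreated cells (edgeR adjusted p 0.00173). Without IgA replicate 3, which was the lowest, the fold changes of EPHA4 were −0.88 and −0.87 and both calls held.

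EPHB3, an EphB receptor with a known role in sorting cells along the intestinal crypt, lies on chromosome 3 (184279573 to 184300196). It had 463.1, 551.6 and 345.9 normalised counts with IgA, 994.9, 984.2 and 886.1 with IgG, and 835.8, 916.4 and 904.7 untreated, so that the IgA libraries again lay apart from all others. Its log2 fold changes were −1.07 against IgG (SE 0.15, 95% interval −1.40 to −0.74, edgeR adjusted p 0.00045) and −0.96 against untreated cells (edgeR adjusted p 0.000823). Without IgA replicate 3 they were −0.91 and −0.80, and both were called.

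EPHB6 lies on chromosome 7 (142552823 to 142568847). It had 88.6, 155.9 and 72.7 normalised counts with IgA, 167.1, 201.2 and 181.2 with IgG, and 227.4, 177.4 and 175.6 untreated. No IgA library reached an IgG or untreated library, but IgA replicate 2 came close to the lowest of them. The log2 fold changes were −0.78 (SE 0.27, 95% interval −1.35 to −0.21, edgeR adjusted p 0.0485) and −0.85 (edgeR adjusted p 0.0318). These calls are the weakest among the 4 genes, because adjusted p rose above 0.05 without any single IgG or untreated library, without IgA replicate 1 or 3, and in a fit of only the 6 libraries compared. Against IgG EPHB6 had a log2 fold change of −0.58 (edgeR adjusted p 0.0946) without IgA replicate 3.

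EPHB1 and EPHB2, both receptors of ephrin-B ligands, were called higher with IgA against untreated cells only. EPHB1 had 755.7, 681.5 and 540.2 normalised counts with IgA, 659.9, 449.8 and 485.3 with IgG, and 393.5, 485.1 and 493.1 untreated. The log2 fold change of EPHB1 was 0.53 against untreated cells (SE 0.18, edgeR adjusted p 0.0447) and 0.31 against IgG (95% interval −0.07 to 0.70, edgeR adjusted p 0.22), where the groups overlapped. EPHB1 lost the call against untreated cells with a block on the replicate number (edgeR adjusted p 0.0627), in a fit of the 6 libraries compared, and without IgA replicate 1 or 2 or any single untreated library. EPHB2 had 1817, 1718 and 1640 normalised counts with IgA, 1426, 1484 and 1399 with IgG, and 1417, 1468 and 1300 untreated, with no overlap between IgA and the rest. Its log2 fold change was 0.31 against untreated cells (SE 0.10, edgeR adjusted p 0.0359) and 0.26 against IgG (95% interval 0.05 to 0.48, edgeR adjusted p 0.0653). EPHB2 lost the call against untreated cells without IgA replicate 1 or any single untreated library, with no filter on low counts, and in a fit of the 6 libraries compared. It gained one against IgG with DESeq2 (adjusted p 0.0385) or without IgA replicate 3 (edgeR adjusted p 0.0392).

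Under scaling by library size alone the typical gene had a log2 fold change (median) of −0.249 against IgG and −0.218 against untreated cells. EPHA2 kept both calls under that scaling, at 0.77 and 0.87. The lower calls of EPHA4, EPHB3 and EPHB6 were kept too, but a scaling that moves fold changes downward could hardly remove a decrease. Over all genes this scaling called 873 higher and 3631 lower against IgG, in place of 2265 and 2095, and 1001 higher and 3296 lower against untreated cells, in place of 2316 and 2187. The calls of EPHB1 and EPHB2 against untreated cells were lost under it, at 0.33 and 0.10.

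EPHA1, EPHA7, EPHA10 and EPHB4 were not called in any comparison. Their fold changes with IgA were imprecise for the scarce genes. EPHA7 had 3 to 47 counts in the libraries of the first experiment, and its log2 fold change against IgG was −0.29 with a 95% interval from −1.56 to 0.99. EPHA10, a kinase-dead receptor, had 29 to 83 counts, with a log2 fold change of 0.18 (95% interval −0.63 to 1.00). EPHB4, known for its part with ephrin-B2 in vessel formation, was measured more tightly, at 0.10 (95% interval −0.14 to 0.34) with 1102 ± 106 normalised counts under IgA and 1029 ± 67.4 under IgG. EPHA1 had 731.8 ± 117 and 762.6 ± 84.9 normalised counts and a log2 fold change of −0.06 (95% interval −0.38 to 0.26). The intervals of EPHB4 and EPHA1 ended well short of the value measured for EPHA2.

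**Figure D2:**
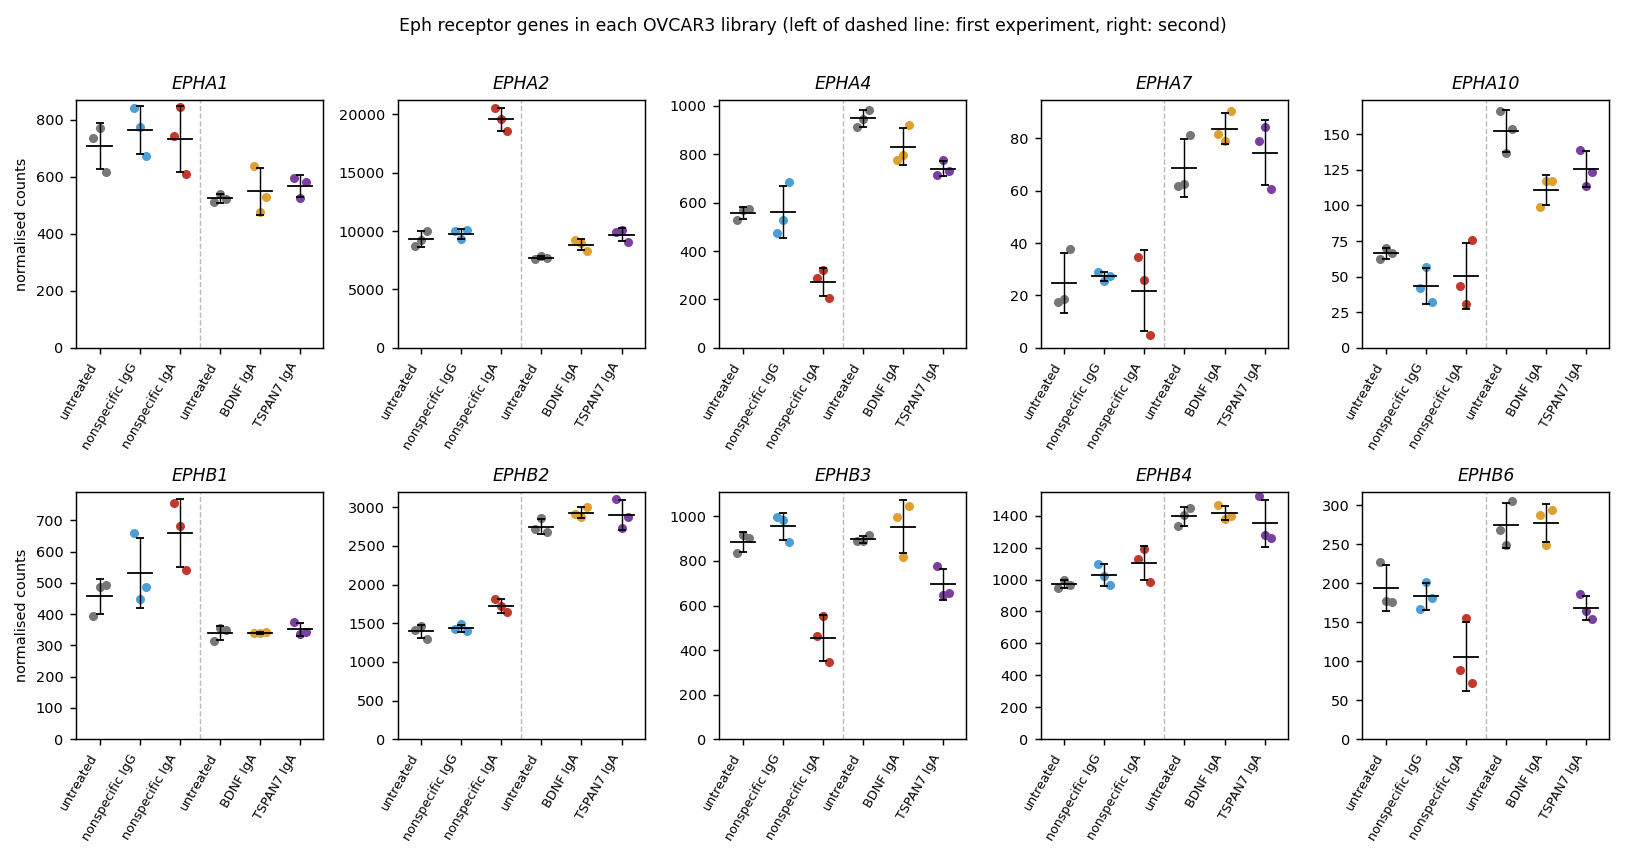
Normalised counts (vertical axis, from 0) of each of the 10 genes in every library of the 6 groups (horizontal axis); points are libraries, horizontal bars are means and whiskers are 1 SD (n = 3). In the first experiment the 3 IgA libraries lie above the others for EPHA2 and EPHB2 and below them for EPHA4, EPHB3 and EPHB6. In the second the TSPAN7 IgA libraries lie apart for EPHB3 and EPHB6, and narrowly for EPHA4.

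IgG against untreated cells asks whether an antibody as such moves these genes. None of the 10 genes was called, beside 0% of all genes in either direction (edgeR, adjusted p under 0.05), and 89 of 18012 genes had an unadjusted p under 0.05. DESeq2 also called 0 of the 10, and 0 of the 10 had an unadjusted p under 0.05 in edgeR. Log2 fold changes of the 10 genes ran from −0.61 to 0.22, with a median of 0.08. The interval for EPHA2 was −0.13 to 0.27, for EPHA4 −0.38 to 0.40 and for EPHB3 −0.21 to 0.43. EPHA10 gave the lowest value, with 42.0, 56.4 and 31.8 normalised counts under IgG and 62.3, 69.8 and 66.9 untreated. Its groups did not overlap, but its edgeR adjusted p was 1. In all, 0 of the 10 genes lay wholly above and 1 wholly below, beside 3.32% and 3.43% of all genes. A fit of only the IgG and untreated libraries also called 0 genes, and 338 of 17537 then had an unadjusted p under 0.05. Both numbers are smaller than a threshold of 0.05 lets through when nothing differs. The test was thus strict here, and small effects of IgG could be missed.

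In the second experiment BDNF IgA is IgA against a secreted neurotrophin and TSPAN7 IgA is IgA against a tetraspanin of the cell surface. EPHA2 again rose with both antibodies, by smaller steps than those measured with nonspecific IgA in the first experiment, a difference that was not tested across experiments. EPHA4, EPHB3 and EPHB6 fell with TSPAN7 IgA. The second experiment had no nonspecific antibody among its groups. Against its untreated cells, antigen reactivity, IgA as such and the purification from B cell medium cannot be told apart. With BDNF IgA 1 of the 10 genes was called higher and 0 lower, beside 4.49% and 3.18% of 18732 genes (DESeq2 also called 0 lower, and 2 decreases, of EPHA4 and EPHA10, had an unadjusted p under 0.05 in edgeR), and the median log2 fold change was 0.04 (all genes 0.002). Here 2 lay wholly above and 1 wholly below, beside 12.8% and 12.0% of all genes. With TSPAN7 IgA 1 was called higher and 3 lower, beside 4.46% and 4.08%, with a median of 0.00 (all genes −0.001), and the same numbers lay wholly above and below, beside 14.4% and 14.0%. Both comparisons use the same untreated libraries. Each of the 4 genes called with TSPAN7 IgA (EPHA2 higher, EPHA4, EPHB3 and EPHB6 lower) was also called, in that direction, in IgA against IgG. That comparison called 12.6% of all genes higher and 11.6% lower. The share of all TSPAN7 IgA calls repeated in this way was not computed, so the overlap is not known to be particular to these genes.

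EPHA2 had 9951, 10068 and 9082 normalised counts with TSPAN7 IgA, 9244, 8946 and 8300 with BDNF IgA, and 7623, 7842 and 7679 in untreated cells. Both treated groups lay wholly above the untreated one and overlapped each other. The log2 fold change of EPHA2 was 0.33 with TSPAN7 IgA (SE 0.05, 95% interval 0.23 to 0.43, edgeR adjusted p 0.000116), or 1.26-fold. With BDNF IgA it was 0.19 (SE 0.05, 95% interval 0.09 to 0.30, edgeR adjusted p 0.0153), or 1.14-fold. The BDNF IgA call of EPHA2 was lost without BDNF IgA replicate 1 (edgeR adjusted p 0.101), untreated replicate 1 (0.0713) or untreated replicate 3 (0.0543). For EPHA2 the difference between the antibodies was 0.14 (95% interval 0.04 to 0.24, edgeR adjusted p 0.0912), and it passed without BDNF IgA replicate 2 (edgeR adjusted p 0.0438).

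EPHA4 had 714.0, 775.7 and 731.9 normalised counts with TSPAN7 IgA and 914.7, 944.7 and 984.3 untreated. Its log2 fold change was −0.36 (SE 0.07, 95% interval −0.51 to −0.21, edgeR adjusted p 0.00306). With BDNF IgA it had 778.0, 796.1 and 920.9, of which the last overlapped the untreated range, and the fold change was −0.19 (95% interval −0.34 to −0.04, edgeR adjusted p 0.113). EPHA4 differed by −0.17 between the antibodies (95% interval −0.32 to −0.02, edgeR adjusted p 0.171), so that neither a shared decrease nor a difference was resolved. Without BDNF IgA replicate 3 the fall of EPHA4 with BDNF IgA was −0.27 and passed the test (edgeR adjusted p 0.0346).

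EPHB3 and EPHB6 separated the antibodies. EPHB3 had 775.9, 649.3 and 658.2 normalised counts with TSPAN7 IgA, 995.3, 819.1 and 1048 with BDNF IgA, and 888.4, 889.1 and 915.7 untreated. The TSPAN7 IgA libraries lay below both other groups, while the BDNF IgA libraries fell on either side of the untreated ones. The log2 fold change of EPHB3 was −0.37 with TSPAN7 IgA (SE 0.09, 95% interval −0.55 to −0.19, edgeR adjusted p 0.00847) and 0.09 with BDNF IgA (95% interval −0.09 to 0.26, edgeR adjusted p 0.596). Leaving out TSPAN7 IgA replicate 2 or 3 ended the EPHB3 call against untreated cells, at edgeR adjusted p 0.0712 and 0.0522.

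EPHB6 had 185.7, 164.4 and 154.8 normalised counts with TSPAN7 IgA, 288.0, 248.7 and 293.7 with BDNF IgA, and 268.4, 248.8 and 305.2 untreated. No TSPAN7 IgA library came near the other 6, which covered one range. Its log2 fold change was −0.70 with TSPAN7 IgA (SE 0.12, 95% interval −0.95 to −0.45, edgeR adjusted p 0.000613) and 0.01 with BDNF IgA (95% interval −0.22 to 0.25, edgeR adjusted p 0.967). By size the EPHB6 decrease ranked 443 of 18732 genes.

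The direct comparison of TSPAN7 IgA with BDNF IgA called 0 of the 10 genes higher and 2 lower, beside 3.42% and 4.50% of all genes, with a median log2 fold change of −0.04 against −0.002. No gene lay wholly above and 3 lay wholly below, beside 11.5% and 12.1%. EPHB6 was lower by −0.72 (SE 0.12, 95% interval −0.97 to −0.47, edgeR adjusted p 0.000761). EPHB3 was lower by −0.46 (SE 0.09, 95% interval −0.64 to −0.28, edgeR adjusted p 0.00208). Both calls held in all 16 alternative analyses. DESeq2 also called 0 of the 10 higher, and 1 increase, of EPHA2, had an unadjusted p under 0.05 in edgeR.

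EPHA10 fell just short in the BDNF comparison, with 99.0, 116.9 and 116.9 normalised counts against 166.1, 136.6 and 153.5 untreated. The groups did not overlap, and its log2 fold change was −0.45 (95% interval −0.76 to −0.15, edgeR adjusted p 0.0614). EPHA10 passed without BDNF IgA replicate 2 (edgeR adjusted p 0.0415). With TSPAN7 IgA its value was −0.28 (edgeR adjusted p 0.275). EPHB1, EPHB2, EPHB4 and EPHA1 stayed near untreated values with both antibodies. EPHB2, for instance, had 2902 ± 194 normalised counts with TSPAN7 IgA, 2929 ± 67.4 with BDNF IgA and 2748 ± 95.1 untreated, and EPHB1 had 351.7 ± 20.2, 340.1 ± 2.62 and 339.2 ± 22.05. EPHA7 had 74.6 ± 12.4, 83.7 ± 5.91 and 68.6 ± 10.99. The BDNF IgA libraries of EPHB2 did lie wholly above the untreated ones, but its log2 fold change was 0.09 (edgeR adjusted p 0.315).

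**Figure D3:**
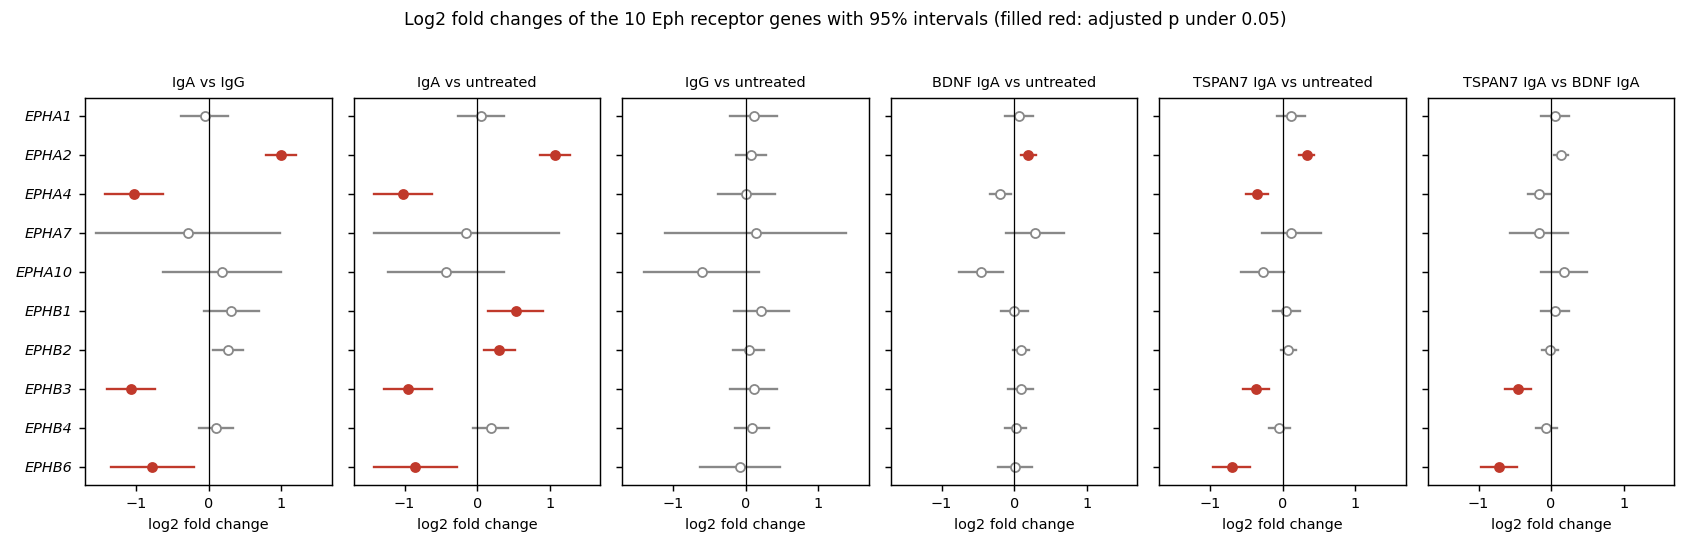
Log2 fold changes (horizontal axes) of the 10 genes (vertical axis) in the 6 comparisons, with 95% intervals; filled red points passed an edgeR adjusted p of 0.05. EPHA2 is called to the right and EPHA4, EPHB3 and EPHB6 to the left in IgA vs IgG, IgA vs untreated and TSPAN7 IgA vs untreated, and no gene is called in IgG vs untreated.

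Genes whose 4 log2 fold changes against untreated cells (nonspecific IgA, nonspecific IgG, BDNF IgA, TSPAN7 IgA) lay closest to those of EPHA2 and EPHA4 were sought among 13338 genes. Likeness was the root mean square difference over the 4 values. For EPHA2 the closest were NRCAM, a neural cell adhesion molecule (0.0147), MST1R, the receptor tyrosine kinase RON (0.0278), and MICB, a stress-induced ligand of the NKG2D receptor (0.04). NRCAM had log2 fold changes of 1.09, 0.07, 0.19 and 0.31 in that order, and EPHA2 had 1.07, 0.07, 0.19 and 0.33. For EPHA4 the closest were a locus listed only under a clone name (0.0323), the Polycomb subunit CBX8 (0.0555) and the orphan receptor GPR157 (0.0609).

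The pathway around the receptors was read from 51 further genes in 6 lists, of which 46 were tested in the first experiment and 47 in the second. Against IgG, 11 rose and 5 fell with IgA, which was 34.8% of those tested beside 24.2% of all genes. Only 6 of these 16 calls (EFNA1, EFNB1, EFNB2, VAV3, INPPL1 and ARHGEF19) held in every alternative at the same threshold, and 4 more were lost only under scaling by library size. Against untreated cells 13 rose and 6 fell (41.3% beside 25.0%). With TSPAN7 IgA 6 rose and 3 fell (19.1% beside 8.54%), with BDNF IgA 5 rose and 2 fell (14.9% beside 7.67%), and between these antibodies 1 was higher and 2 lower (6.38% beside 7.92%). Of these calls 8 of 19 held in every such alternative for IgA against untreated cells, 5 of 9 for TSPAN7 IgA, 3 of 7 for BDNF IgA and 0 of 3 between the antibodies. The shares called are no test of the pathway, because the lists were chosen with earlier results of these data known. The listed genes were also not matched to all genes in level.

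Among the 8 ephrin ligands, 2 rose and 2 fell against IgG. EFNA1, which encodes the main ligand of EphA2, had 2771 ± 899 normalised counts with IgA and 875.0 ± 58.1 with IgG, a log2 fold change of 1.66 (edgeR adjusted p 0.000104). EFNB1 rose by 1.13, while EFNB2, the ligand of EphB4, fell from 1950 ± 15.2 to 886.0 ± 164 normalised counts, by 1.14 on the log2 scale. EFNB3 fell by 0.63, a call that ended without IgA replicate 1 or IgG replicate 2 or 3. The receptor EPHA2 and its ligand gene EFNA1 thus both rose with IgA. With TSPAN7 IgA 1 ligand gene was called, EFNB1 (0.30, edgeR adjusted p 0.00206). With BDNF IgA EFNB1 (0.29) and EFNA1 (0.34) were higher, the latter with overlapping groups and lost without BDNF IgA replicate 1 or 3 or any single untreated library.

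Among 14 kinases and adaptors that Eph receptors recruit, 5 rose and 0 fell against IgG. These were the adaptors GRB7 (log2 fold change 0.80, with overlapping groups), SHC1 (0.50) and NCK2 (0.37) and the SRC family kinases LYN (0.66) and YES1 (0.27). The calls of SHC1, NCK2, LYN and YES1 were lost under library-size scaling, and those of NCK2 and YES1 also in 5 and 8 other alternatives. In the second experiment LYN gained 0.30 with TSPAN7 IgA (edgeR adjusted p 0.00093), and so rose the adaptors NCK1 (0.21) and CRKL (0.16). NCK1 lost this call without TSPAN7 IgA replicate 2 or 3 or untreated replicate 1 or 2, and CRKL without any single library of the 2 groups. NCK1 was also higher with BDNF IgA (0.20), a call lost in 4 alternatives. Between the antibodies GRB7 was lower (−0.33) and the kinase ABL2 higher (0.21) with TSPAN7 IgA, in calls that ended in 4 and 5 alternatives.

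Exchange factors and GTPase activators carry the signal from the receptor towards the cytoskeleton. Of 13 tested, 3 rose and 2 fell against IgG. VAV3, an exchange factor known to bind activated EphA2, fell by 0.94 (edgeR adjusted p 0.00103) and ARHGEF19 by 0.60, while NGEF (ephexin 1, known as a partner of EphA4) rose by 0.67, RASA1 by 0.55 and ITSN2 by 0.53. These 3 increases were lost under library-size scaling, and NGEF lost its call in 7 other alternatives. VAV3 fell with TSPAN7 IgA as well, by 0.21 (edgeR adjusted p 0.00459), as did TIAM1 (−0.26) and ITSN1 (−0.16). The ITSN1 call ended in 5 alternatives. With BDNF IgA ITSN1 fell by 0.14, the only call among the 13, which was lost under library-size scaling and in 7 other alternatives. The direct contrast of TSPAN7 IgA with BDNF IgA gave −0.16 for VAV3 (edgeR adjusted p 0.0322), which was lost without BDNF IgA replicate 1 or 3 or TSPAN7 IgA replicate 2 or 3.

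Of 6 phosphatases and negative regulators tested, INPPL1 (SHIP2, a lipid phosphatase that binds EphA2 and slows its uptake) fell by 0.63 against IgG (edgeR adjusted p 0.000849), and the ubiquitin ligase CBL, which marks activated receptors for degradation, rose by 0.41. INPPL1 rose with BDNF IgA, by 0.22 (edgeR adjusted p 0.00205). CBL rose by 0.19 with TSPAN7 IgA, a call lost in 4 alternatives. The CBL call against IgG was lost under library-size scaling and in 2 other alternatives. ADAM10, a protease that cleaves ephrins bound by Eph receptors, rose by 0.22 with BDNF IgA (edgeR adjusted p 0.00261) and 0.21 with TSPAN7 IgA (edgeR adjusted p 0.00339).

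Of the other 4 Eph receptor genes, EPHA8 had at most 5 counts in any library and was not tested, and EPHA5 had at most 8 counts in the first experiment. EPHA3 had 18.19, 14.98 and 39.92 normalised counts with BDNF IgA and 37.5, 66.8 and 61.4 untreated, a log2 fold change of −1.17 (edgeR adjusted p 0.0347). The EPHA3 groups overlapped, and the call ended in 5 alternatives at the same threshold. EPHA6 had 41 to 97 counts in the first experiment and 105 to 163 in the second, more than EPHA7 on average in every group, and was not called in any comparison.

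**Figure D4:**
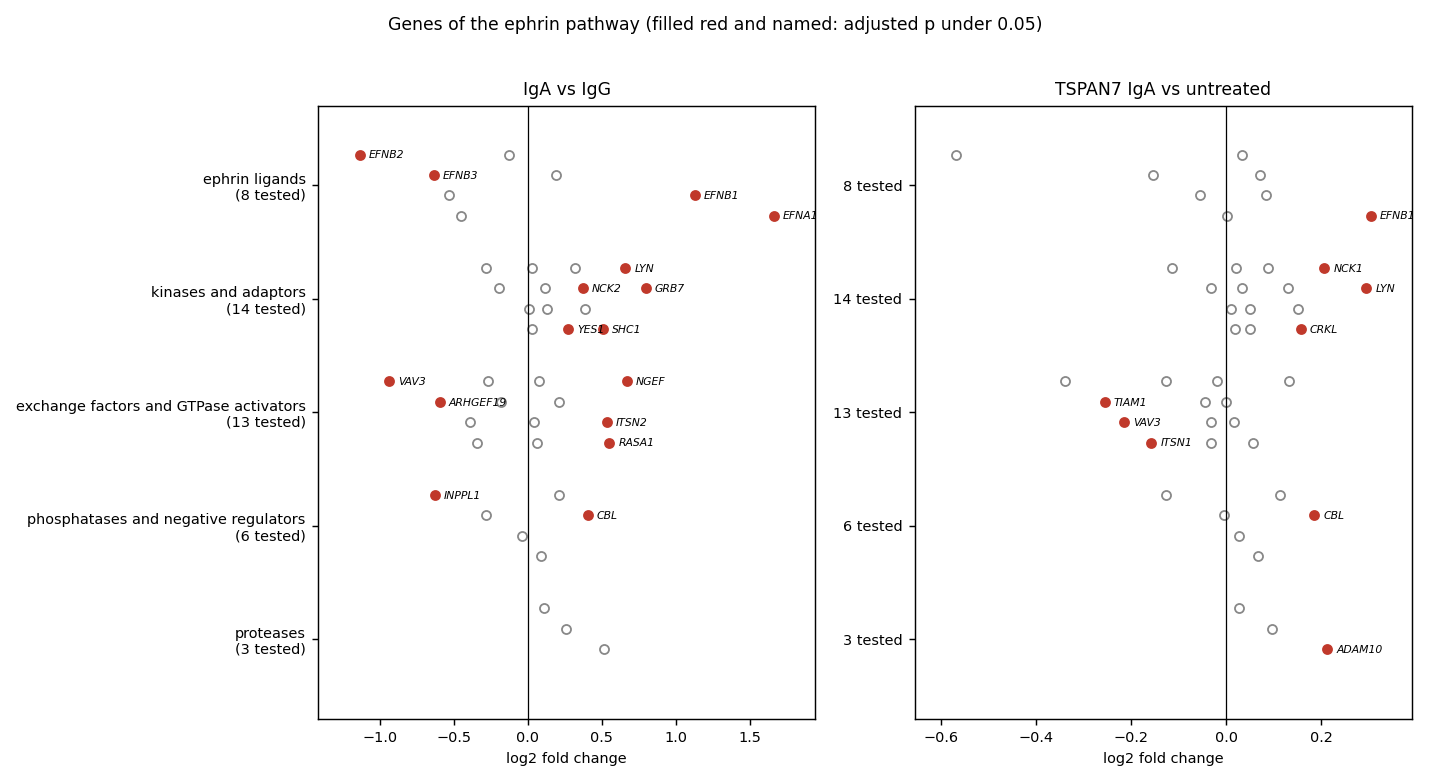
Log2 fold changes (horizontal axes, of different range) of tested pathway genes in 5 lists (vertical axis) for IgA vs IgG, left, and TSPAN7 IgA vs untreated, right; points are genes, and those with an edgeR adjusted p under 0.05 are filled red and named. EFNA1 and EFNB1 lie farthest to the right and EFNB2 and VAV3 farthest to the left in IgA vs IgG.

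Exons of other annotated genes cover at most 5.92% of the exonic bases of any of the 10 genes (EPHB1, by a long noncoding RNA on the same strand). No source used here says whether strand was used in counting, and reads in such bases cannot be assigned. In the annotation used here EPHA2, EPHA10, EPHB3 and EPHB6 share no exonic base with another gene. The counts carry older symbols (IL8 in place of CXCL8), so the exons that were counted may differ from that annotation.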

How the data were processed

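The 18 libraries were made from RNA of OVCAR3 cells. Per the study's methods, the authors trimmed reads with cutadapt, aligned them with STAR to GRCh37 and ran featureCounts on the unique alignments. The submitters' processing notes list bcl2fastq 2.20.0.422, cutadapt 1.8.1 and HTSeq 0.6.1, without their roles, and the strand setting was not given in the sources used here. The deposited values are raw counts, with no normalisation. Groups were taken from sample titles. Of 57820 rows in the second table, 2055 exact repeats were dropped. Within groups, libraries were further apart than sampling noise allows (chi-square per degree of freedom 4.16 to 259). Pairs of IgA libraries gave 74.6, 207 and 259, and the other pairs of the first experiment 7.12 to 27.7. Each fit shares its estimate of the spread per gene over all 9 libraries. SEs and intervals of the first experiment may thus be too narrow for IgA comparisons and too wide for IgG against untreated cells. The labels do not say whether replicates were separate cultures. The study counts those of the first experiment as experiments and gives only the number of those of the second, so there p-values measure the spread between libraries, which may be technical.

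Each experiment was fitted with all 9 libraries in edgeR 4.0.16 (R 4.3.3) after filterByExpr and TMM scaling, by the two-sided quasi-likelihood F test, with Benjamini-Hochberg adjustment over all genes tested in a comparison and calls at an adjusted p under 0.05. The SE was the size of the log2 fold change over the root of F, and 95% intervals used the degrees of freedom of that test. Levels per length used the union of exons in GENCODE on GRCh37, which may differ from the exons that were counted. Alternatives were DESeq2 1.42.0, library-size scaling, other filters, a stricter threshold, only the 6 libraries compared, a replicate block, leaving out each library, and for levels the longest transcript. All 10 genes were named whatever their values. Pathway genes were named where called in IgA vs IgG or in the second experiment, and 3 genes most like each of 2 members (mean of at least 50 normalised counts) were named by their fold changes. Some pathway genes are not reported here. Genes and lists were chosen with earlier results of these data known. Scripts were tested on simulated counts.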

Additional observations from a re-analysis of the deposited data

Results flagged for a closer look

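The responses of EPHB3 and EPHB6 differed between the 2 antigen-reactive antibodies, as tested by the direct contrast within the second experiment. EPHB3 had a log2 difference of −0.46, TSPAN7 IgA minus BDNF IgA (edgeR adjusted p 0.00208), with all 3 TSPAN7 IgA libraries below all 3 BDNF IgA libraries. EPHB6 had one of −0.72 (edgeR adjusted p 0.000761), also without overlap.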

How the results depend on the processing

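Of the fold changes of single members given above, 32 were recomputed in 499 alternative analyses, of which 449 kept direction and side of the threshold, 37 lost a call, 5 gained one and 8 changed sign. No called member changed sign. EPHA2, EPHA4 and EPHB3 kept both IgA calls in all 15 alternatives. The number of members called higher with IgA against IgG was 2 with DESeq2 (EPHB2 added), and 1 to 2 when single libraries were left out. The number called higher with IgA against untreated cells was 1 with library-size scaling, with only the 6 libraries compared and at an adjusted p under 0.01, and 1 to 3 when single libraries were left out. With BDNF IgA the number called higher was 0 at an adjusted p under 0.01. Leaving out single libraries gave 0 to 1 higher and 0 to 1 lower with BDNF IgA, and 0 to 1 higher for TSPAN7 IgA against BDNF IgA. The causes were not tested. The sign changes were all of uncalled values near 0 when single libraries were left out: EPHB6 with BDNF IgA ran from −0.0515 to 0.0987, EPHB1 with BDNF IgA from −0.0475 to 0.0374, and EPHB2 for TSPAN7 IgA against BDNF IgA from −0.0636 to 0.0301. For EPHA1, EPHA7, EPHA10 and EPHB4, 20 of 372 alternative fold changes changed sign and 1 passed the threshold (EPHA10 with BDNF IgA, −0.50, adjusted p 0.0415, without BDNF IgA replicate 2).

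Deviations of same-numbered libraries had correlations from −0.07 to 0.25 in the first experiment and from −0.02 to 0.09 in the second. Those of differently numbered libraries ran from −0.21 to 0.14 and from −0.08 to 0.05. The highest value of each experiment belonged to a same-numbered pair, but all were low. These values do not settle whether libraries were weakly paired. With a replicate block EPHB1 lost its call against untreated cells (0.51, adjusted p 0.0627) and no other member gained or lost one. Depth limited the scarce EPHA7 and EPHA10 most. For IgA against IgG their 95% intervals were the widest of the members, −1.56 to 0.99 and −0.63 to 1.00 on the log2 scale. That of EPHB6 was next, from −1.35 to −0.21.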
